A study of Homo sapiens with 4 samples.

Results

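The 10 genes described here make, break down and regulate the polyamines, and they were taken by symbol (ODC1, AMD1, SRM, SMS, SAT1, SMOX, PAOX, OAZ1, OAZ2 and AZIN1) from the 29833 genes of the expression table. All 10 were found, each in a single entry. The cells were Reh-6-MPR, a 6-mercaptopurine (6-MP) resistant derivative of Reh, an established line from human B-cell acute lymphoblastic leukemia with no engineered allele. The 4 libraries, 1 per treatment, came from cells kept for 48 h with PBS as vehicle, with 4 mM histidine, with 1.0 μg/mL 6-MP, or with both agents, and the study asked which genes take part in the response to this combination. As no treatment had a second library, no difference could be set against a replicate spread, and no p-value is given. Expression was deposited as FPKM, the reads of a gene divided by gene length and by library size.

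Putrescine, spermidine and spermine are small positively charged amines that bind RNA, DNA and nucleotides and are needed for proliferation. Ornithine decarboxylase makes putrescine from ornithine, and S-adenosylmethionine decarboxylase supplies the aminopropyl groups that spermidine synthase and spermine synthase attach. Acetylation and oxidation run the pathway backwards, while antizymes bind ornithine decarboxylase and send it to the proteasome. Several genes of the synthesis arm, ODC1 among them, are known transcriptional targets of MYC, and the pathway is usually active in leukemic lymphoblasts.

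The libraries held between 12899122 reads (both agents) and 15486376 reads (histidine), and the number of genes above 0 was 25443 with both agents and 23635 to 23978 in the other 3 libraries. The B-lineage identity was checked on 8 marker genes, each averaging an FPKM of 1 or more, whose summed FPKM ran from 1297 to 1396. Of the monocyte and granulocyte markers 3 of 6 were measured, with sums of 26.9 to 31.1 in the other libraries and 42.3 with both agents, nearly all from MPO. Of the stromal markers 2 of 3 were measured, with sums of 8.68 to 9.39 and 14.4 with both agents. T cell markers were not analysed here. The part of these differences in the results below was not tested. In bulk RNA, fewer cells that express a gene and less of its RNA per cell cannot be told apart.

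Of the 10 genes, 9 averaged an FPKM of 1 or more over the libraries and entered the counts, and PAOX did not. In untreated cells ODC1 was the most abundant, at an FPKM of 117, above 98.1% of the 12750 genes that pass this filter. It was followed by OAZ1 at 73.0, SMS at 67.5, SRM at 46.3, AZIN1 at 35.2, AMD1 at 27.6 and OAZ2 at 13.1. Each of these neighbours differed by more than the 95% counting intervals of the recovered reads. SAT1 at 4.84 and SMOX at 4.48 came next, and their intervals (4.14 to 5.62 and 3.87 to 5.17) overlapped. PAOX was last at 0.0931. This order depends on the gene lengths divided by, which were inferred from the values. For AMD1 the length was 10193 bases, beside a GENCODE 29 exon length of 7027, at which AMD1 would stand above AZIN1. The synthesis arm and its regulators were thus among the upper part of the expressed genes, and the catabolic enzymes lay below the middle, with SAT1 above 43.0% and SMOX above 40.8% of the genes. With both agents AZIN1 at 33.6 stood above SRM at 26.6, the reverse of their order with vehicle and beyond the counting intervals in each library. SMOX at 11.6 stood above SAT1 at 8.65 beyond the intervals, as it also did with histidine (5.59 and 3.64). With both agents the intervals of SMOX and OAZ2 (12.6) overlapped, and so did those of OAZ1 and SMS.

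**Figure D1:**
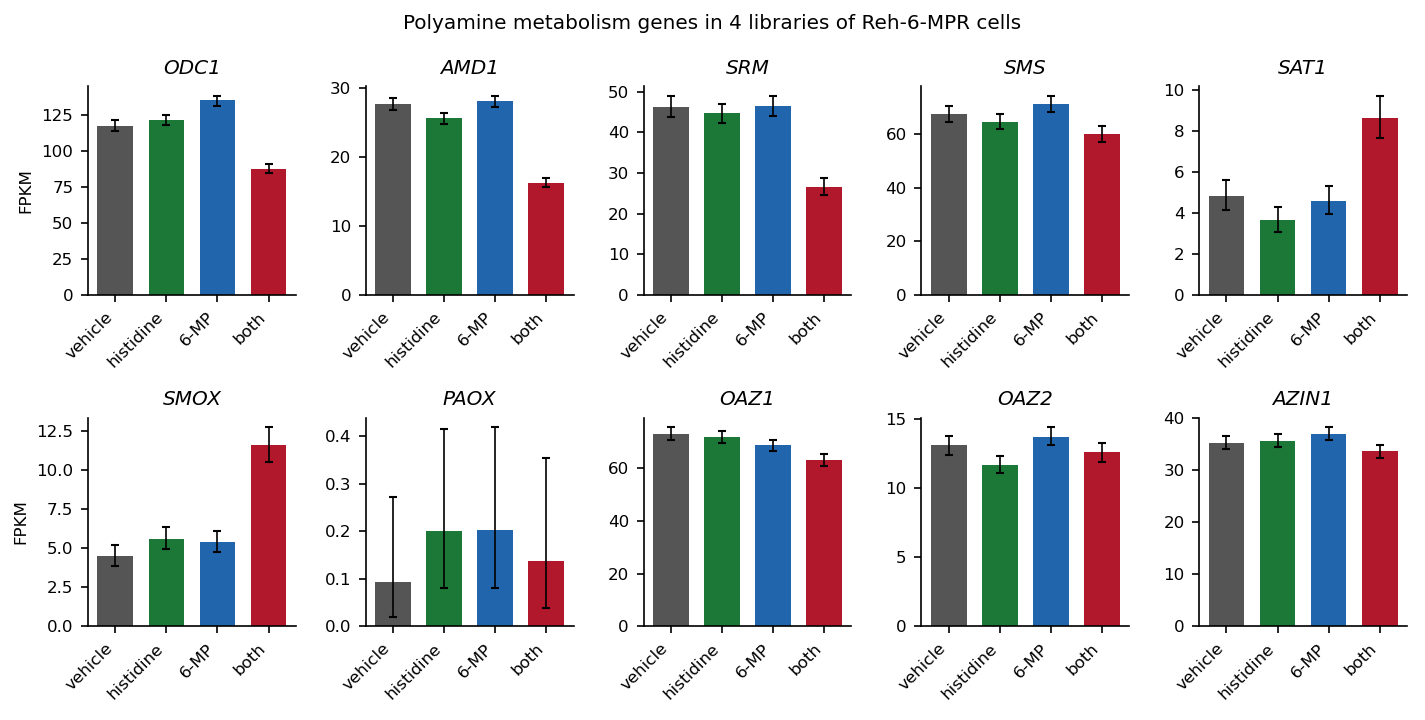
FPKM (y axis, from 0, a separate scale for each gene) of the 10 polyamine genes in the 4 libraries, with bars for single libraries and error bars for 95% Poisson intervals of the reads. ODC1, AMD1, SRM, SMS, OAZ1 and AZIN1 were lowest and SAT1 and SMOX highest with both agents. SMOX reached an FPKM of 11.6 with both agents against 4.48 with vehicle.

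ODC1 (ENSG00000115758; GRCh38 chromosome 2, 10439968 to 10448327, minus strand) encodes ornithine decarboxylase, the first and rate-limiting enzyme of the pathway. Its FPKM was 117 (vehicle), 121 (histidine), 135 (6-MP) and 87.6 (both agents), on 4688, 5250, 5764 and 3152 reads. The library with both agents was the lowest and that with 6-MP the highest. From the reads, the level with both agents was 0.746 times that with vehicle (95% counting interval 0.713 to 0.781), 0.721 times that with histidine (0.689 to 0.753) and 0.650 times that with 6-MP (0.623 to 0.679). With 6-MP alone ODC1 was above vehicle by 1.15-fold (1.10 to 1.19), and with histidine alone the interval of 0.995 to 1.08 included no difference. These intervals cover counting error only and compare libraries, not treatments.

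AMD1 (ENSG00000123505; chromosome 6, 110874770 to 110898879, plus strand) encodes S-adenosylmethionine decarboxylase, which makes the donor of the aminopropyl groups. The FPKM values were 27.6 (vehicle), 25.6 (histidine), 28.0 (6-MP) and 16.2 (both agents), from 4033, 4040, 4380 and 2135 reads. The first 3 libraries lay close together and the library with both agents lay far below them. It reached 0.588 times vehicle (0.557 to 0.619), 0.634 times histidine (0.602 to 0.669) and 0.580 times 6-MP (0.550 to 0.611). Histidine alone gave 0.926 times vehicle (0.886 to 0.968), a small difference beyond counting error.

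SRM (ENSG00000116649; chromosome 1, 11054584 to 11060020, minus strand), the gene of spermidine synthase, had the lowest of all member ratios between the combination and vehicle. The counting interval of this ratio overlapped that of AMD1. SRM was at an FPKM of 46.3 (vehicle), 44.7 (histidine), 46.4 (6-MP) and 26.6 (both agents), on 1256, 1310, 1349 and 651 reads. The 3 other libraries differed by only 0.06 on the log2(FPKM + 1) scale, a narrower range than in all but 12.4% of the genes. Against them the ratio of the combination was 0.575 to vehicle (0.523 to 0.633), 0.597 to histidine (0.542 to 0.656) and 0.574 to 6-MP (0.522 to 0.631).

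SMS (ENSG00000102172; chromosome X, 21940709 to 21994837, plus strand) encodes spermine synthase, which carries out the last step. Its FPKM was 67.5, 64.6 and 71.4 with vehicle, histidine and 6-MP, and 60.2 with both agents (1959, 2028, 2219 and 1574 reads). The combination was again the lowest library, but by far less than for the other synthesis genes. The ratio was 0.892 to vehicle (0.834 to 0.953), 0.932 to histidine (0.872 to 0.996) and 0.844 to 6-MP (0.790 to 0.900). As SRM was lower and SMS was nearly level, the FPKM of SMS went from 1.46 times that of SRM with vehicle, 1.45 times with histidine and 1.54 times with 6-MP to 2.26 times with both agents.

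The sequences around the transcript starts of these genes are shown because ODC1, AMD1 and SRM were lower together, and SAT1 is added as a catabolic gene with a matched window that was higher. RefSeq (GRCh38.p14) windows of 300 bases, 250 before and 50 after a start, were used for 7 of the 10 members, 10 windows in all. They are written 5′ to 3′ on the strand of the gene, with each CACGTG, the E-box bound by MYC with MAX and by other factors, in capitals. The ODC1 window is chr2:10447963-10448262, minus strand, around a second start inside the gene. The SRM window is chr1:11059969-11060268, minus strand, that of AMD1 is chr6:110874535-110874834, plus strand, and that of SAT1 is chrX:23782923-23783222, plus strand.
ODC1: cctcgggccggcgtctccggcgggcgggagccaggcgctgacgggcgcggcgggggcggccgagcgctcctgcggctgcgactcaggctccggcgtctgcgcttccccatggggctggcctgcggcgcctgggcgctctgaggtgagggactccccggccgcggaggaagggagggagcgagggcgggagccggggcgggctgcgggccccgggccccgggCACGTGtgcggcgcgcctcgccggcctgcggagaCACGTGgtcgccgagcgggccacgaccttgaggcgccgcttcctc
SRM: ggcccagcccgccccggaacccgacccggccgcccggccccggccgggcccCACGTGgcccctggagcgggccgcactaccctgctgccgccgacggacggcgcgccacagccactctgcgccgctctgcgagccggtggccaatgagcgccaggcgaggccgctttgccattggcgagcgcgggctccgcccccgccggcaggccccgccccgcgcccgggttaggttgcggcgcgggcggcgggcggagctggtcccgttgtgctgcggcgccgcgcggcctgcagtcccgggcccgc
AMD1: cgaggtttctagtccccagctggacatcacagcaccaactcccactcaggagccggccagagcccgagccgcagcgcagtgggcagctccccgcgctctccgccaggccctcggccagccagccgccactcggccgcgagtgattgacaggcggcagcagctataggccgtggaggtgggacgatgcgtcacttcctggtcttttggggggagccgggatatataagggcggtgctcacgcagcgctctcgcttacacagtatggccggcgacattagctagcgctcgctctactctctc
SAT1: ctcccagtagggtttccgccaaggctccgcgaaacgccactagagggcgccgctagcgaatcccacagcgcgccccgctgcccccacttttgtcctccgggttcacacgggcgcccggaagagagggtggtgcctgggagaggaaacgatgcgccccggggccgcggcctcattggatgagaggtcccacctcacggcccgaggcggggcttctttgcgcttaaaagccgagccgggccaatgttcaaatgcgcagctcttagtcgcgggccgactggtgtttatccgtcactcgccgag
ODC1 held 2 such hexamers, at positions -29 and 6 from this start, and its other window, at the outermost start, held none. SRM held 1 at -199. The windows of AMD1, SMS, SAT1, OAZ1 and OAZ2 held none. CACGTG reads the same on both strands and occurred in 7.26% of all 35116 windows and for 8.77% of 27305 genes with a window. GGGCGG and TATAAA were also searched, on either strand. GGGCGG was in every member window used here except that of SAT1, and in 45% of all windows. TATAAA was in the OAZ1 window alone among the member windows used here, and in 11.5% of all windows. A match is a description of these letters only, and the FPKM values do not tell which start was used.

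SAT1 (ENSG00000130066; chromosome X, 23783173 to 23786210, plus strand) encodes spermidine/spermine N1-acetyltransferase, whose acetylated products are exported or oxidised. The FPKM values were 4.84 (vehicle), 3.64 (histidine), 4.6 (6-MP) and 8.65 (both agents), on 172, 140, 175 and 277 reads. The combination was the highest library and histidine alone the lowest. SAT1 was 1.79 times vehicle with both agents (1.47 to 2.17), 2.38 times histidine (1.93 to 2.93) and 1.88 times 6-MP (1.55 to 2.29). Histidine alone gave 0.752 times vehicle (0.598 to 0.946), and 6-MP alone 0.949 times (0.765 to 1.18).

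SMOX (ENSG00000088826; chromosome 20, 4120980 to 4187747, plus strand) encodes spermine oxidase, which turns spermine back into spermidine and releases hydrogen peroxide. It was at an FPKM of 4.48 (vehicle), 5.59 (histidine), 5.38 (6-MP) and 11.6 (both agents), on 189, 255, 243 and 439 reads. Vehicle was the lowest library and the combination stood well above the other 3. The ratio was 2.58 to vehicle (2.17 to 3.07), 2.07 to histidine (1.77 to 2.42) and 2.15 to 6-MP (1.83 to 2.52). Each single agent was slightly above vehicle, at 1.25-fold for histidine (1.03 to 1.51) and 1.2-fold for 6-MP, where the interval of 0.988 to 1.46 included no difference.

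PAOX (ENSG00000148832; chromosome 10, 133379261 to 133391694, plus strand), the peroxisomal oxidase of acetylated polyamines, was close to the limit of detection. Its FPKM was 0.0931 (vehicle), 0.201 (histidine), 0.203 (6-MP) and 0.138 (both agents), from 3, 7, 7 and 4 reads. At these reads no difference was detectable. The interval of the combination against vehicle ran from 0.250 to 10.1. A gene without a symbol (ENSG00000254536) overlaps PAOX on the same strand with 27 to 43 reads. Whether the few reads of PAOX depend on how the overlap was counted was not tested.

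OAZ1 (ENSG00000104904; chromosome 19, 2269509 to 2273490, plus strand) and OAZ2 (ENSG00000180304; chromosome 15, 64687573 to 64703281, minus strand) encode antizymes. Their protein is made only when the ribosome slips forward by a base at a stop codon, a step that polyamines promote. GENCODE 29 marks this slip as a gap of 1 base, at chr19:2271443-2271443 in OAZ1 and at chr15:64691515-64691515 in OAZ2. The sites, taken from transcripts of the same genes that read through the gap, are shown because the RNA level measured here does not report on this step, and the stop codon TGA is in capitals.
OAZ1: cggtggtgctccTGAtgcccctcaccc
OAZ2: ctgtggtgctccTGAtgcccctcaccc
OAZ1 was at an FPKM of 73.0 (vehicle), 71.7 (histidine), 68.7 (6-MP) and 63.2 (both agents) (3593, 3816, 3619 and 2800 reads). The combination was the lowest library, at 0.865 times vehicle (0.823 to 0.909), 0.881 times histidine (0.839 to 0.925) and 0.920 times 6-MP (0.876 to 0.967). OAZ2 was at 13.1, 11.7 and 13.7 with vehicle, histidine and 6-MP, and at 12.6 with both agents (1438, 1392, 1614 and 1246 reads). The combination lay among the other 3 libraries, at 0.962 times vehicle (0.891 to 1.04), 1.07 times histidine (0.995 to 1.16) and 0.918 times 6-MP (0.852 to 0.989). Against histidine the difference of OAZ2 changed its sign after scaling by the median ratio, to -0.03 on the log2 scale.

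AZIN1 (ENSG00000155096; chromosome 8, 102826111 to 102893864, minus strand) encodes the antizyme inhibitor, a relative of ornithine decarboxylase without its activity that captures antizyme. The FPKM values of 35.2 (vehicle), 35.6 (histidine), 36.9 (6-MP) and 33.6 (both agents) (3092, 3383, 3471 and 2654 reads) made it the member with the most even level after PAOX was set aside. With both agents it was at 0.953 times vehicle (0.904 to 1.00), 0.942 times histidine (0.895 to 0.991) and 0.909 times 6-MP (0.864 to 0.957). MAILR, a long noncoding RNA on the opposite strand of AZIN1, had 100 to 133 reads.

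**Figure D2:**
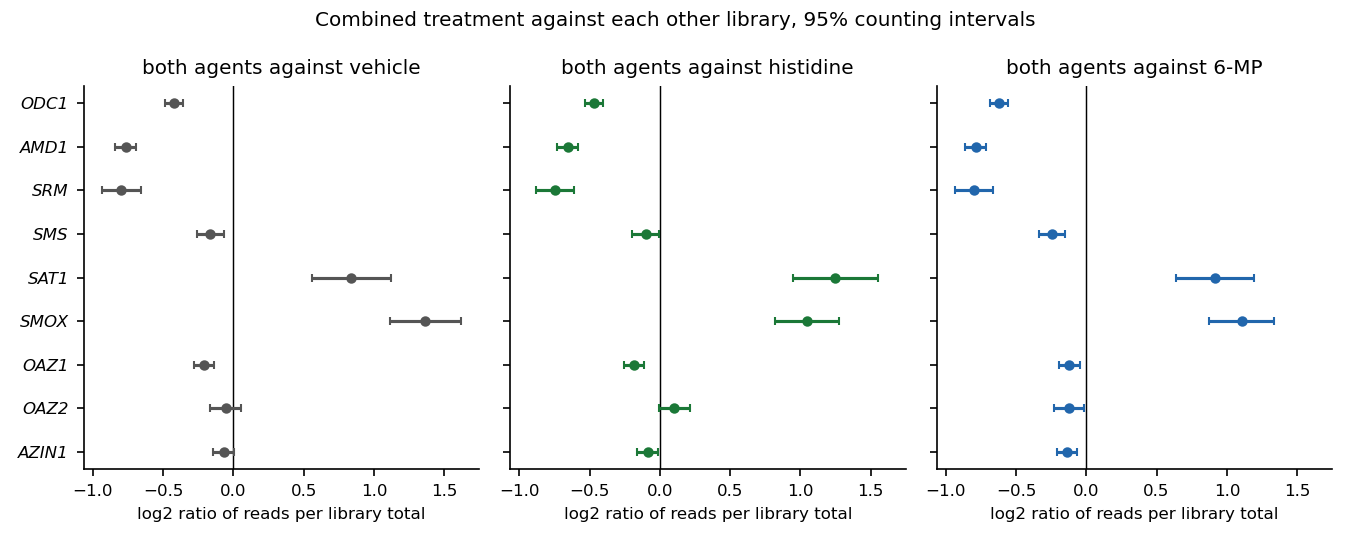
Log2 ratio of reads per library total (x axis) between both agents and vehicle, histidine or 6-MP, for 9 genes, with points for the ratio and bars for 95% Clopper-Pearson counting intervals. The points of ODC1, AMD1, SRM, SMS, OAZ1 and AZIN1 lay below 0 and those of SAT1 and SMOX above 0 in all 3 panels. Against vehicle SMOX was at 1.37 and SRM at -0.80.

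The 9 genes were then set against all 12750 genes as differences of log2(FPKM + 1), a measure that shrinks fold changes where FPKM is low. The 3 comparisons of the combination share its library, so they are not independent of one another. A log2 fold change of 1 or more in size was reached by SMOX against vehicle (1.2), where 6.53% of all genes passed, and by SAT1 against histidine (1.06), where 5.55% passed. Against 6-MP, where 6.02% of genes passed, SMOX came nearest at 0.98 and no member passed. With a pseudocount of 0.1 SMOX also passed against histidine and 6-MP, but the share of all genes that passed was then 10% and 11%.

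With a lower threshold of 0.5, AMD1 (-0.73) and SRM (-0.77) passed downward against vehicle, 22.2% of the 9 members beside 7.37% of all genes. SAT1 (0.72) and SMOX passed upward, the same share of members beside 19.7% of all genes, so the upward share was near that of the background. Against histidine the same genes passed, AMD1 at -0.62, SRM at -0.72, SAT1 at 1.06 and SMOX at 0.93, beside 7.53% of all genes downward and 17.8% upward. Against 6-MP, ODC1 (-0.61) joined AMD1 (-0.75) and SRM (-0.78), which made 33.3% of the members beside 6.88% of all genes, and SAT1 (0.79) and SMOX passed upward beside 19.3%. The members that passed downward were all enzymes of synthesis, and those that passed upward were both enzymes of catabolism. The antizymes, AZIN1 and SMS passed in no comparison.

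The median gene was not at 0 in these comparisons but at 0.13 against vehicle, 0.11 against histidine and 0.13 against 6-MP, while the median of the 9 members was -0.16, -0.10 and -0.13. Relative to the median gene, the combination against vehicle gave -0.91 for SRM, -0.86 for AMD1, -0.55 for ODC1, 0.59 for SAT1 and 1.06 for SMOX. ODC1 was then at -0.58 against histidine and -0.74 against 6-MP, past 0.5 in each comparison. Scaling by the median ratio had the same effect on ODC1, and the share of all genes past 0.5 against vehicle became 14% upward and 11.6% downward. SAT1 then stood at 0.94 against histidine, below the threshold of 1.

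**Figure D3:**
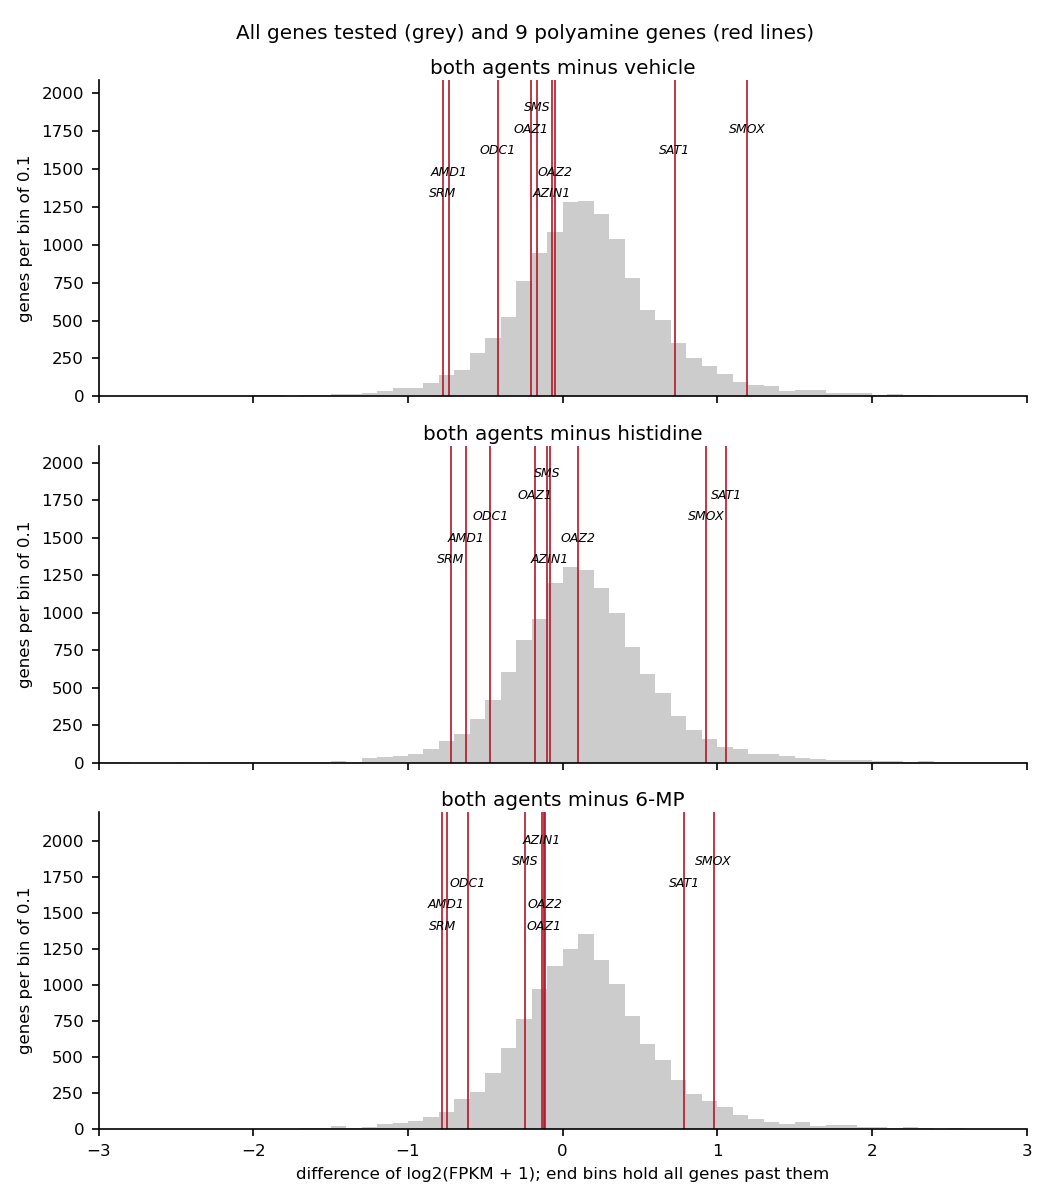
Number of genes (y axis, bins of 0.1) by difference of log2(FPKM + 1) (x axis) between both agents and each other library, for 12750 genes in grey, with red lines at the 9 members. SRM and AMD1 lay in the lower tail, with 2.9% and 3.31% of genes below them against vehicle, and SMOX in the upper tail with 96.8% below it.

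The distance from the combination to the nearest of the other 3 libraries was compared with the range of those 3. For SRM this distance was -0.72 beside a range of 0.06, for AMD1 -0.62 beside 0.12, and for ODC1 -0.42 beside 0.20. For SMOX it was 0.93 beside a range of 0.27, and for SAT1 0.72 beside 0.33. For OAZ1 it was -0.12 beside 0.09 and for AZIN1 -0.07 beside 0.06. The combination thus lay below the rest by more than their range in 5 of the 9 members, beside 19.2% of all genes, and above it in 2, beside 37.1%. For AZIN1, one of the 5, the interval of the ratio to the nearest library, vehicle, included no difference. After median-ratio scaling these shares of all genes were 27.5% below and 25.5% above, with 6 and 2 members. A distance of at least 0.5 downward was reached by AMD1 and SRM, beside 4.53% of all genes, and upward by SAT1 and SMOX, beside 13.0%. For OAZ2 the combination lay inside the range, and for SMS it lay below it at -0.10, beside a range of 0.14.

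No member passed a log2 fold change of 1 with histidine alone or 6-MP alone, where 1.33% and 1.18% of all genes did, and none passed 0.5, where 4.86% and 4.72% did, so that counts near 0 were usual for genes of any kind. The values ran from -0.33 for SAT1 to 0.27 for SMOX with histidine, and from -0.09 for OAZ1 to 0.22 for SMOX with 6-MP. For SAT1 with histidine 3.62% of all genes were lower, and for SMOX 91.2% were below it with histidine and 91.4% with 6-MP. Departure from additivity was the log2(FPKM + 1) value of the combination minus those of the single agents plus that of vehicle. It was 1.12 for SAT1 and 0.71 for SMOX. It was -0.73 for SRM, -0.66 for ODC1 and -0.64 for AMD1. Of all genes 4.07%, 4.95% and 5.22% were below these 3 values, while 96.3% were below that of SAT1 and 89.9% below that of SMOX. The median over all genes was 0.11.

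The FPKM of the 4 synthesis enzymes together was 259 (vehicle), 256 (histidine), 280 (6-MP) and 191 (both agents). ODC1 made up 45.3% to 48.0% of this sum in every library. The summed FPKM of SAT1, SMOX and PAOX was 9.41, 9.43 and 10.2 in the first 3 libraries and 20.3 with both agents. The ratio of the sums was therefore almost the same with vehicle (27.5), histidine (27.2) and 6-MP (27.6), and was 9.37 with both agents. The ratio does not depend on how the libraries are scaled. ODC1 was at 1.61 times OAZ1 with vehicle, 1.69 times with histidine and 1.96 times with 6-MP, and at 1.39 times with both agents, while AZIN1 stayed between 0.482 and 0.538 times OAZ1. Levels of different genes are per length here, and rest on the lengths the authors divided by. These lengths were inferred from the values, and for the members ran from 1894 bases (SRM) to 10193 bases (AMD1). For AMD1 the GENCODE 29 exon length is 7027 bases.

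**Figure D4:**
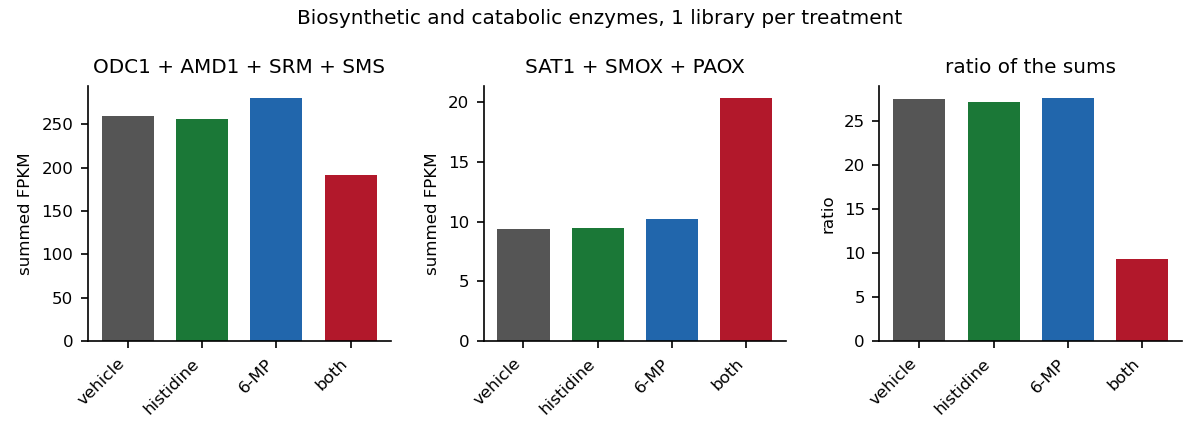
Summed FPKM (y axes, from 0) of 4 synthesis enzymes and of 3 catabolic enzymes, and the ratio of the sums, with a bar for each of the 4 libraries and no error bars. The ratio was 27.2 to 27.6 in 3 libraries and 9.37 with both agents.

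The genes around the pathway were examined in 5 lists, in which 17 of the 24 genes measured averaged an FPKM of 1 or more. Against vehicle the combination passed 0.5 upward in 2 of the 17 (19.7% of all genes) and downward in 3 (7.37% of all genes), with a median of -0.06 beside 0.13 for all genes. Of the 7 genes of the methionine cycle and salvage, which recycles the methylthioadenosine left by synthesis, only ADI1 passed against vehicle, at 0.59. ENOPH1 was lowest against vehicle at -0.46. ADI1 was at an FPKM of 3.76 (vehicle), 3.58 (histidine), 3.12 (6-MP) and 6.17 (both agents). For ornithine supply, ALDH18A1, which makes the glutamate-derived precursor of ornithine and proline, was at -0.64, from an FPKM of 49.4 with vehicle, 51.3 with histidine and 50.4 with 6-MP to 31.3. OAT, which interconverts ornithine and glutamate semialdehyde, was at -0.06. In the list of the methionine cycle and salvage, MAT2A passed downward against histidine, at -0.54, and ADI1 upward, at 0.65.

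Of the proteins that depend on spermidine, eIF5A carries hypusine, an amino acid that DHPS and DOHH build from it. EIF5A was at -0.81 against vehicle, with an FPKM of 11.2 (vehicle), 7.50 (histidine), 7.89 (6-MP) and 5.95 (both agents). It was also lower with each single agent, at -0.52 with histidine and -0.45 with 6-MP. Whether copies of EIF5A share its reads was not tested. DOHH was at -0.27. Among transporters, SLC18B1, a vesicular polyamine transporter, was at an FPKM of 10.7, 9.85 and 11.8 with vehicle, histidine and 6-MP and at 5.04 with both agents. It was the one gene of the lists past 1, at -1.08 against 6-MP, and stood at -0.96 against vehicle. SLC3A2, the heavy chain shared by several amino acid exchangers, went the other way, from 28.3, 28.6 and 27.9 to 47.1, a log2 fold change of 0.72 against vehicle. SAT2, a paralog of SAT1, was at 0.41.

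**Figure D5:**
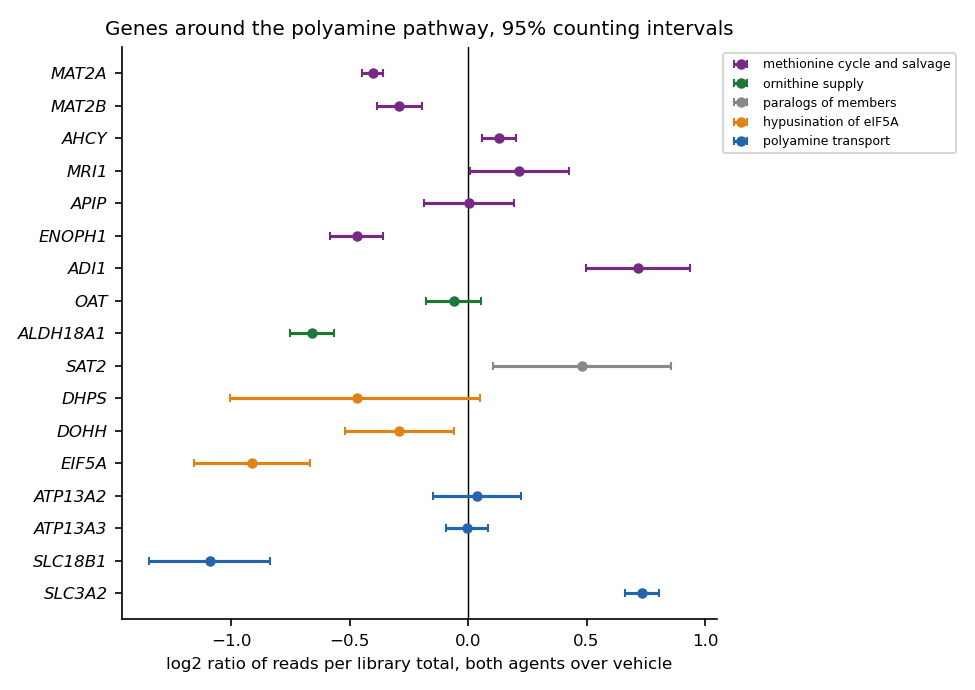
Log2 ratio of reads per library total (x axis) between both agents and vehicle for the 17 genes of 5 lists that averaged an FPKM of 1 or more, with points for the ratio, bars for 95% counting intervals and a colour for each list. SLC18B1, EIF5A and ALDH18A1 lay farthest below 0, with EIF5A at -0.91, and SLC3A2 and ADI1 farthest above, with ADI1 at 0.71.

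The 3 protein-coding genes whose pattern over the 4 libraries was most like that of SMOX were CRTAP, CYTH2 and CCNL2. Among 6726 genes that averaged an FPKM of 5 or more, their distances from SMOX were 0.06, 0.08 and 0.08 on the centred log2(FPKM + 1) scale. CRTAP went from an FPKM of 21.6 with vehicle to 25.8 with histidine, 25.6 with 6-MP and 48.4 with both agents. With 4 libraries such likeness is a description only.

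Copies of the members took few reads. The 4 pseudogenes named after members, SRMP2, SRMP3, AMD1P3 and ODCP, had at most 7 reads in any library, against at least 651 for SRM, AMD1 and ODC1. A small nucleolar RNA inside ODC1, SNORA80B, had 2 to 7 reads. JSRP1 overlaps OAZ1 with at most 1 read, and 2 noncoding genes overlap OAZ2 with at most 16. Whether the counting used the strand is not given in the sources used here.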

How the data were processed

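Total RNA of 4 samples was made into stranded poly(A) libraries, which the authors gave to a company for sequencing and quantification. The deposited values are FPKM per gene. The submitters' processing notes name Trimmomatic, HISAT2, Cufflinks, HTSeq and GRCh38 (hg38), without versions or roles. Within each gene the FPKM values are whole multiples of the worth of 1 read, and reads were recovered for 29830 of 29833 genes within a tolerance of 0.02. Lengths were the shortest that gave whole reads, or up to 6 times that if this came within 20% of the GENCODE 29 length (for no member). Their totals were 100.00% to 100.03% of the whole-number denominators. Intervals are exact 95% Poisson (levels) and Clopper-Pearson (ratios). Fold changes are differences of log2(FPKM + 1), without a test, over genes averaging an FPKM of 1 or more. The genes named are the members, in the lists around the pathway any gene past 1 and the highest and lowest against vehicle, the 3 nearest patterns, and copies. MAT2A was named outside this rule, for its difference against histidine. Members, lists and rules were chosen with earlier results of these data known. MTAP and SATL1 were not analysed here. Sequences around the transcript starts of SMOX, PAOX and AZIN1 were not analysed either, so their hexamers are unknown here. The erythroid markers are not reported here. Alternatives were a pseudocount of 0.1, median-ratio and TPM scaling, no filter or an average FPKM of 5 or more, protein-coding genes only, and ratios of reads. DESeq2, which the authors used, was not run. Read recovery was tested on simulated data built with the GENCODE 29 lengths. The recovery was given these same lengths, so lengths that differ from them, as for AMD1, were not tested. The tables were computed with pandas 2.3.3 and numpy 2.4.6, the intervals with scipy 1.17.1 and the figures with matplotlib 3.10.9, all under Python 3.11.15.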

Additional observations from a re-analysis of the deposited data

Results flagged for a closer look

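In 2 members a single agent and the combination gave differences of opposite sign, each beyond the counting interval. For SAT1, histidine alone was below vehicle by a log2 read ratio of -0.41 (-0.74 to -0.08). Histidine added to 6-MP was above 6-MP alone by 0.91 (0.64 to 1.19). The departure from additivity, taken on the log2(FPKM + 1) scale and not from these read ratios, was 1.12. For ODC1, 6-MP alone was above vehicle by a log2 read ratio of 0.20 (0.14 to 0.25). 6-MP added to histidine was below histidine alone, at -0.47 (-0.54 to -0.41). The departure on the log2(FPKM + 1) scale was -0.66. Each value compares 1 library with 1 other, so the difference between the effects was not tested. Opposite signs by the same criterion, for either agent, were found in 9.15% of 12749 genes.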

How the results depend on the processing

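No paired analysis was possible because there was just 1 library per treatment, and no library could be left out of a comparison. In the counts of members past 0.5, every alternative stayed within 1.5 times the value reported. At a fold change of 1, the count of members against histidine, 1 as reported, was 2 with a pseudocount of 0.1, 2 with TPM scaling, 2 with ratios of reads and 0 with median-ratio scaling, while the share of all genes went from 5.55% to 10%, 15.7%, 10.3% and 5.14%. Against 6-MP the count, 0 as reported, was 1 with a pseudocount of 0.1, 1 with TPM scaling and 1 with ratios of reads, beside 11%, 16.2% and 11% of all genes in place of 6.02%. With TPM, whose values are larger, 17949 genes passed the filter in place of 12750, so scaling and gene set changed together. Median-ratio scaling raised the divisor of the combination by 0.12 on the log2 scale and moved the median of the members to -0.32 against vehicle, -0.23 against histidine and -0.28 against 6-MP. It moved 20 of 50 member values past their counting error, and the other scalings and pseudocount moved none. ODC1, AMD1, SRM, SAT1 and SMOX kept their direction in all 3 comparisons of the combination under these settings. Signs changed for OAZ2 (both agents against histidine, -0.03 to 0.12), SRM (6-MP against vehicle, -0.005 to 0.02) and AZIN1 (histidine against vehicle, -0.01 to 0.03). Counts of members farther from the other 3 libraries than their range, chosen after seeing the data, were 4 to 6 below and 2 above. Depth limits PAOX most, at 3 reads with vehicle, and also leaves the order of SAT1 and SMOX with vehicle and with 6-MP, and SMOX with 6-MP against vehicle, within counting error.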
